A study of Mus musculus with 3 samples.

Results

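The genes described here are 35 genes of the hypoxia response, namely the regulators of hypoxia-inducible factor (HIF) and the HIF targets that lie outside glycolysis. They were taken by gene symbol from a list, out of 36609 genes on the array, and were split by role into 9 regulators and 26 targets. Where a gene had several probes, the value used came from the probe that the scanner software called well above background on the most arrays, and among ties from the brightest. The 35 genes had 62 probes. A total of 32 genes were measured, meaning well above background, on all 3 arrays. P4ha2 and Plod2 were measured on the PBS array alone, and Hif3a on none.

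Gene expression was profiled on single-colour microarrays in spleen cells from MRL/MpJ males, 6 months old, of a strain prone to autoimmunity. The cells were cultured for 3 h with MRL/MpJ-Faslpr/lpr urine, MRL/MpJ urine or PBS, and each condition had 1 array. MRL/MpJ-Faslpr/lpr mice carry the lpr mutation of Fas and develop lupus-like disease; their urine is called lpr urine here. The spleen cells of all 3 conditions came from MRL/MpJ mice, so the mutation was present in a urine donor strain and not in the cells. Each urine was pooled from 6 male donors aged 6 months, spun and sterile-filtered, and all cells were plated densely in RPMI1640 after red cell lysis. The labels do not give the share of urine in the medium, nor whether the wells came from separate spleens. With 1 array per condition no difference had a replicate check and no test was possible, so each difference describes these arrays only.

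HIF is a transcription factor made of an oxygen-regulated alpha subunit and a stable beta subunit. In oxygen, prolyl hydroxylases of the Egln family mark the alpha subunit for the ubiquitin ligase that contains the von Hippel-Lindau protein, and the asparaginyl hydroxylase encoded by Hif1an blocks its coactivator binding. When oxygen is short, the alpha subunit accumulates and binds short DNA motifs with the core ACGTG or GCGTG at target genes. HIF targets act in glycolysis, in mitochondrial turnover, in blood vessel growth and in matrix modification, and some of them, such as Egln3, act back on HIF itself. In leukocytes HIF is also known to be raised by bacterial products and by activation, with oxygen present.

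The probes of the 3 arrays read at their 75th percentile 75.7 intensity units with lpr urine, 86.6 with MRL/MpJ urine and 157.5 with PBS, and each array was scaled by that value. Differences below are log2 differences after this scaling, and signals are given before it. Errors after ± come from the scanner software's error model, which assumes a proportional error of 10% of the signal plus a background term. They cover the spot and not the culture well, the RNA or the array. The array scaling sets where 0 lies: with the arrays scaled by their 8 E1A spike-ins, synthetic transcripts added to each labelling reaction, every difference from PBS fell by 0.99 for lpr urine and by 0.91 for MRL/MpJ urine. Markers of the labelled tissue were present, with 5 of 5 B cell, 6 of 6 T cell, 6 of 6 monocyte and macrophage and 5 of 5 neutrophil markers measured on all arrays. Of the endothelial markers 2 of 7 were, of the stromal markers 1 of 6 and of the urinary tract epithelium markers 1 of 7.

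The promoters shown belong to genes far lower with urine, chosen by the size of the fall and not by the HIF motif. They are the 300 bases from 250 before to 50 after the annotated start, from RefSeq on GRCm38.p6, written 5′ to 3′ on the gene's strand. Capitals mark ACGTG and GCGTG on either strand, where neighbouring matches run together. The Hilpda window lies at chr6:29272376-29272675 (plus strand), that of Ramp3 at chr11:6658283-6658582 (plus strand) and that of Bnip3 at chr7:138909457-138909756 (minus strand). The Ankrd37 window lies at chr8:45999801-46000100 (minus strand) and that of Egln3 at chr12:54203825-54204124 (minus strand).
Hilpda: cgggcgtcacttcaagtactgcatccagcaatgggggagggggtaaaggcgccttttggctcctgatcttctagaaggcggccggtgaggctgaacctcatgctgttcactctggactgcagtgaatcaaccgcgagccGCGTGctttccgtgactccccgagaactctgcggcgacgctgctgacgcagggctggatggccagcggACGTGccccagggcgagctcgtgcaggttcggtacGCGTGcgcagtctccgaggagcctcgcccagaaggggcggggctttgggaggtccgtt
Ramp3: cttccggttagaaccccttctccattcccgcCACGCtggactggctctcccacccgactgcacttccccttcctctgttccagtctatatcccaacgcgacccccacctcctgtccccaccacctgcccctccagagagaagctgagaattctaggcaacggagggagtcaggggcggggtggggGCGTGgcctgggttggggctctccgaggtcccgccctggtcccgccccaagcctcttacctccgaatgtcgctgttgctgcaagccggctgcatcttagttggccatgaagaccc
Bnip3: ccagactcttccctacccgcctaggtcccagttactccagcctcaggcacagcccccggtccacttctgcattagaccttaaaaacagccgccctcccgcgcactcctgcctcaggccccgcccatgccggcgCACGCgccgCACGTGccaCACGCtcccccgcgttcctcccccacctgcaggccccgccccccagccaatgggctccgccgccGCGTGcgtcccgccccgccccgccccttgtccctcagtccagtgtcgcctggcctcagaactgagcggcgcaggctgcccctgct
Ankrd37: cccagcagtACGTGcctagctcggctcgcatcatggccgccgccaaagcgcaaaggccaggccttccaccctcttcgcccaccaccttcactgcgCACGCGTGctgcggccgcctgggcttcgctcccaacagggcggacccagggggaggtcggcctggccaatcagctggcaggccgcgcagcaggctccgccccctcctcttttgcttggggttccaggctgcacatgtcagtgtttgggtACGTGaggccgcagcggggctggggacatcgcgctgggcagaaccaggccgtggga
Egln3: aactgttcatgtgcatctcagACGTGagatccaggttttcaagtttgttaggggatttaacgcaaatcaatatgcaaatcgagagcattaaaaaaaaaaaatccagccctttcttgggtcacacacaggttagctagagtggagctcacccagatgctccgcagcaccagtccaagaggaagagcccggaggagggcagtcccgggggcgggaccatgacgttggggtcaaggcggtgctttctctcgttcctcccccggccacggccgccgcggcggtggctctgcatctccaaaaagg

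Hilpda has another annotated start, whose window overlaps this one and holds 1 match. Matches numbered 3 in the Hilpda window shown, 2 in Ramp3, 5 in Bnip3, 4 in Ankrd37 and 1 in Egln3. The palindrome CACGTG, which is also the E-box, counts once on each strand and accounts for 2 of the matches in Bnip3. A window was available for 28 of the 35 genes, and 25 of these had at least 1 match, against 46.7% of all 27025 genes with a window. The 3 without a match were Vhl, Hif1an and Car12. Among targets, matches were present in 9 of 9 genes that were at least 2-fold lower with both urines and in 9 of 10 other measured genes, so the motif did not separate them. Base composition was not matched between these shares, and a match describes the letters, not binding.

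Most regulators and many of the targets were lower with urine than with PBS. With lpr urine, 6 of 8 measured regulators and 11 of 24 measured targets were at least 2-fold lower, and the share over all 19370 genes measured on both arrays was 12.0%. In the comparison of MRL/MpJ urine with PBS the counts were again 6 of 8 regulators and 11 of 24 targets, against 11.1% of 19639 genes. The 17 genes were the same for both urines, which share the PBS array. In the opposite direction stood 0 regulators and 1 target, Vegfa, in each comparison, where all genes had a share of 18.5% higher in the lpr urine comparison and 16.9% higher in the MRL/MpJ urine comparison. The median difference of the regulators was -1.65 for lpr urine and -1.65 for MRL/MpJ urine, that of the targets was -0.69 and -0.72, and that of all genes was 0.15 and 0.13. Under spike-in scaling 44.0% of all genes were lower with lpr urine and 41.0% with MRL/MpJ urine, while 5.60% and 5.58% were higher. The count of lower targets was then 17 for lpr urine and 16 for MRL/MpJ urine.

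**Figure D1:**
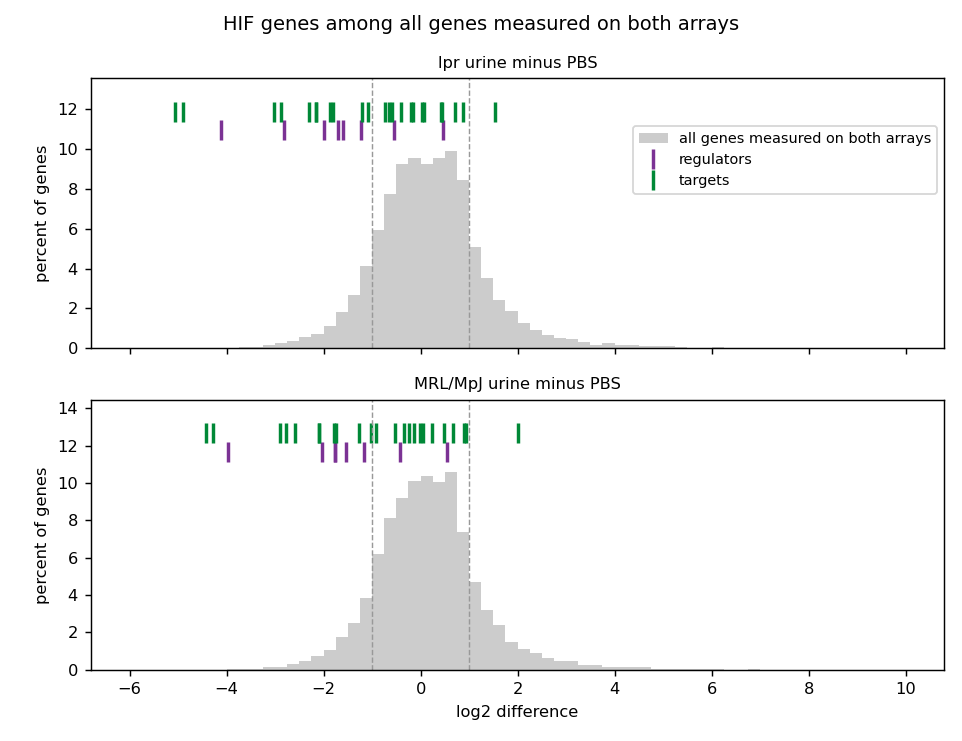
Distribution of the log2 difference from PBS over all genes measured on both arrays (grey bars, percent of genes), with lpr urine above and MRL/MpJ urine below. Each tick is 1 HIF regulator (purple) or non-glycolytic target (green), and dashed lines mark 2-fold. The regulators and targets reach from the far lower end into the upper part of the distribution, with Vegfa at 1.54 and 2.02 as the rightmost tick.

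Of the HIF alpha subunits, both that were measured were lower. Hif1a, the broadly expressed alpha subunit, read 306.7 intensity units with lpr urine and 367.9 with MRL/MpJ urine, against 1505 with PBS. Its difference from PBS was -1.24 ± 0.20 with lpr urine and -1.17 ± 0.20 with MRL/MpJ urine (probe on chromosome 12, 75047819 to 75047878, mm9). The other 2 probes of Hif1a were at least as low, at -2.12 and -1.71 with MRL/MpJ urine, although the second of these lies in the opposite orientation. Epas1, which encodes the HIF-2 alpha subunit of endothelial cells and macrophages, read 51.0 with lpr urine and 51.8 with MRL/MpJ urine, against 322.1 with PBS (-1.60 ± 0.21 and -1.77 ± 0.21). Hif3a, whose product includes forms that oppose HIF, was not well above background on any array.

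The 7 endothelial markers had a summed signal before scaling of 118.4 with lpr urine and 137.9 with MRL/MpJ urine, against 197.2 with PBS. Divided by the array's 75th percentile, the sums were 1.56 and 1.59 with these urines, against 1.25 with PBS. Of the endothelial markers, Cdh5, Tek, Emcn and Tie1 were not well above background on any array. The scaled differences from PBS of the 2 measured ones, Pecam1 and Vwf, were 0.22 and 0.81 with lpr urine and 0.22 and 0.67 with MRL/MpJ urine. For the 6 monocyte and macrophage markers the summed signal before scaling was 1849 with lpr urine and 1932 with MRL/MpJ urine, against 2189 with PBS. After scaling their median difference was 1.02 for lpr urine and 1.15 for MRL/MpJ urine, so its direction depended on the scaling. Epas1 was lower before and after scaling. In a mixture of cells such as this, fewer cells of a type and less RNA per cell cannot be told apart.

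Of the oxygen sensing and HIF restraint genes, 4 of 6 were at least 2-fold lower with each urine, where all genes had shares of 12.0% for lpr urine and 11.1% for MRL/MpJ urine. Egln3, the prolyl hydroxylase that HIF itself induces, read 7.52 units with lpr urine and 9.50 with MRL/MpJ urine, against 271.8 with PBS, a difference of -4.12 ± 0.28 and -3.98 ± 0.25. It ranked 13th and 10th from the lowest of all genes measured on both arrays (chromosome 12, 55280953 to 55281012, mm9). Since Egln3 lay near background with urine, the size of its difference depended on background correction. The normexp correction, which adds an offset of 50 units and so shrinks the differences of dim signals, gave -1.70 and -1.77. Egln1, the main HIF prolyl hydroxylase in most cells, read 309.0 with lpr urine and 416.1 with MRL/MpJ urine, against 2563 with PBS (-2.0 ± 0.20 and -1.76 ± 0.20). Egln2, a family member that hypoxia does not induce, read 1448 with lpr urine and 1800.2 with MRL/MpJ urine, against 4381 with PBS. After scaling Egln2 was within 2-fold, at -0.54 ± 0.20 and -0.42 ± 0.20. From the lowest difference the 3 hydroxylase genes were ordered Egln3, Egln1, Egln2, but with normexp Egln1, at -2.13 and -1.87, lay below Egln3.

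Vhl, the substrate-binding part of the HIF ubiquitin ligase, read 125.2 units with lpr urine and 160.3 with MRL/MpJ urine, against 848.8 with PBS (-1.70 ± 0.20 and -1.54 ± 0.20). Hif1an, the gene of the asparaginyl hydroxylase FIH, read 7.17 with lpr urine and 14.2 with MRL/MpJ urine, against 105.5 with PBS. Its difference of -2.82 ± 0.28 and -2.03 ± 0.23 was matched by its other probe (-2.55 and -2.51), but with normexp it was -0.74 and -0.66, under 2-fold. Cited2, a HIF-induced protein that competes with HIF for its coactivators p300 and CBP, was the regulator that stood on the other side of 0. It read 412.8 with lpr urine and 494.8 with MRL/MpJ urine, against 619.5 with PBS, which was 0.47 ± 0.20 and 0.54 ± 0.20 after 75th percentile scaling and -0.52 and -0.37 under spike-in scaling. A dimmer probe of Cited2, at 45.3, 58.0 and 7.10 units in the same order, differed by 3.73 and 3.89.

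**Figure D2:**
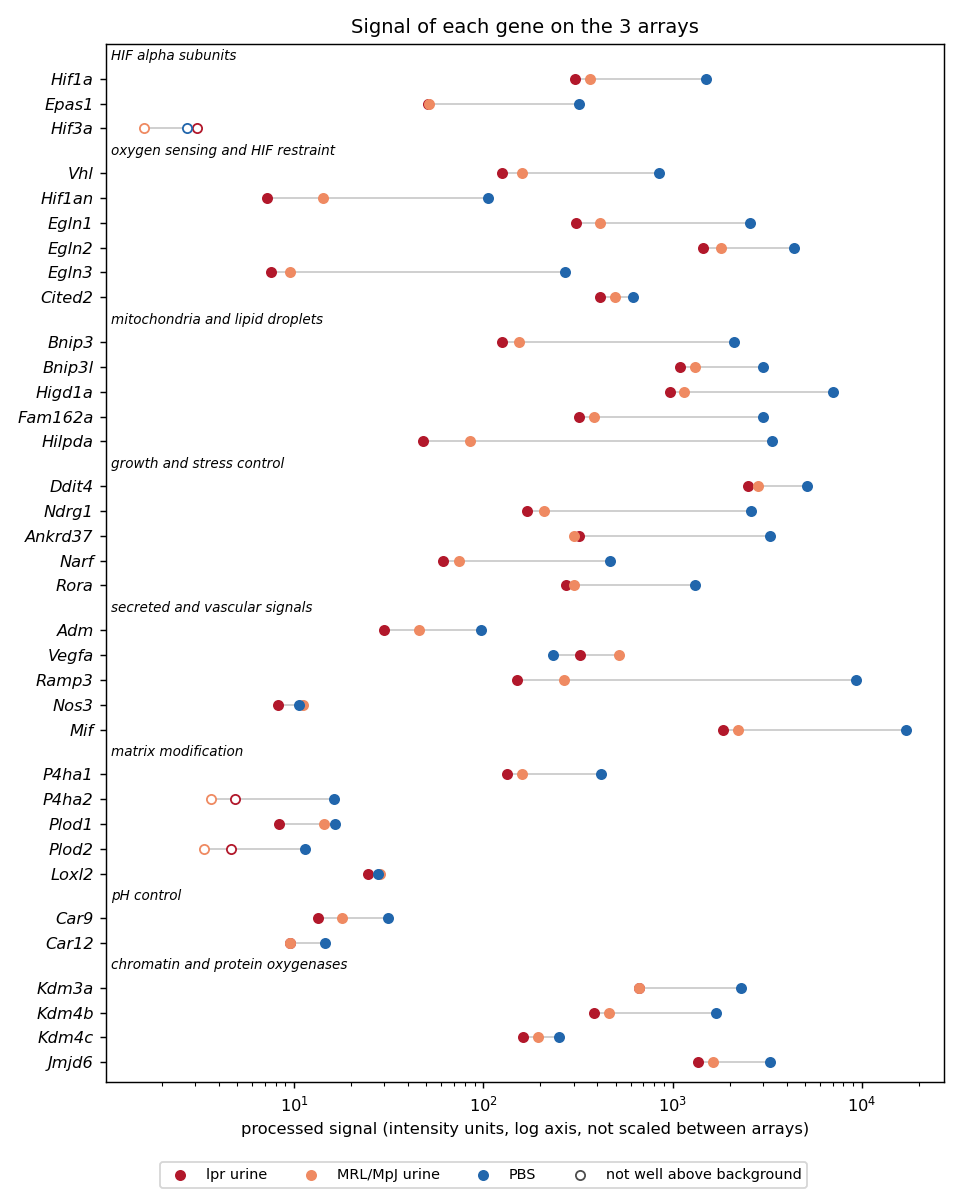
Processed signal of each of the 35 genes (rows, grouped by role) on the 3 arrays, in intensity units on a log axis and before scaling between arrays; open points were not well above background. The PBS point lies to the right of both urine points for 29 of the 32 genes measured on all arrays, and Vegfa is the gene with PBS below both urines. The PBS array was brighter as a whole, with a 75th percentile of 157.5 units against 75.7 with lpr urine and 86.6 with MRL/MpJ urine. The same share over all genes is not given, so this count does not set the 32 genes apart.

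Of the targets that act on mitochondria and lipid droplets, 4 of 5 were at least 2-fold lower with each urine, against 12.0% of all genes for lpr urine and 11.1% for MRL/MpJ urine. Hilpda, whose product coats lipid droplets and inhibits their breakdown, read 48.1 units with lpr urine and 85.2 with MRL/MpJ urine, against 3334 with PBS. Its difference was -5.06 ± 0.21 with lpr urine and -4.43 ± 0.20 with MRL/MpJ urine, 4th from the lowest of all genes in each comparison. Bnip3, a receptor for the removal of mitochondria, read 125.3 and 155.0 with the lpr and MRL/MpJ urines, against 2104 with PBS (-3.01 ± 0.20 and -2.90 ± 0.20). Its relative Bnip3l, which clears mitochondria from maturing red cells, read 1089.7 and 1307 with the same urines, against 3008 with PBS, and stayed within 2-fold at -0.41 ± 0.20 and -0.34 ± 0.20. The 7 erythroid markers, all measured, had medians of 0.74 and 0.61, and their part in the value of Bnip3l was not tested. Fam162a, a mitochondrial protein gene linked to cell death in hypoxia, differed by -2.16 ± 0.20 with lpr urine and -2.09 ± 0.20 with MRL/MpJ urine, and Higd1a, which encodes an inner membrane protein of the respiratory chain, by -1.80 ± 0.20 and -1.75 ± 0.20.

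In growth and stress control, 4 of 5 targets were at least 2-fold lower with each urine, beside the same 12.0% and 11.1% of all genes. Ndrg1, a hypoxia- and differentiation-induced gene, read 170.8 units with lpr urine and 209.3 with MRL/MpJ urine, against 2595 with PBS (-2.87 ± 0.20 and -2.77 ± 0.20). Ankrd37, a small ankyrin repeat gene that HIF-1 is known to induce, read 318.6 and 301.5 with the lpr and MRL/MpJ urines, against 3285 with PBS (-2.31 ± 0.20 and -2.58 ± 0.20). Narf, which encodes a prelamin-binding nuclear protein, differed by -1.87 ± 0.21 with lpr urine and by -1.78 ± 0.20 with MRL/MpJ urine, and the nuclear receptor gene Rora by -1.20 ± 0.20 and -1.27 ± 0.20. The exception was Ddit4, the gene of the mTOR inhibitor REDD1, which many stresses besides hypoxia induce. Ddit4 read 2516 with lpr urine and 2819 with MRL/MpJ urine, against 5140.4 with PBS, and lay at 0.03 ± 0.20 and -0.00 ± 0.20 after scaling, or at -0.96 and -0.91 under spike-in scaling.

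Secreted and vascular targets went in both directions. Ramp3, a receptor-activity-modifying protein that makes the calcitonin receptor-like receptor respond to adrenomedullin, read 150.4 units with lpr urine and 266.1 with MRL/MpJ urine, against 9360.3 with PBS. Its difference of -4.90 ± 0.20 and -4.27 ± 0.20 was the 5th and 6th lowest of all genes, and a second probe that overlaps the first gave -4.88 and -4.27. Mif, the macrophage migration inhibitory factor, was read from a probe with 10 spots per array. They averaged 1855 ± 80.9 with lpr urine and 2209 ± 83.6 with MRL/MpJ urine, against 17189.5 ± 765.3 with PBS (SD over spots of 1 array). The difference was -2.16 ± 0.20 with lpr urine and -2.10 ± 0.20 with MRL/MpJ urine, and the spread of spots within an array does not give the spread between cultures.

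Vegfa, the main growth factor of blood vessels and a textbook HIF target, was the only gene of the 35 at least 2-fold higher with either urine. Its brightest probe read 326.0 units with lpr urine and 520.4 with MRL/MpJ urine, against 233.5 with PBS, a difference of 1.54 ± 0.20 and 2.02 ± 0.20. The other 3 probes gave 1.52, 0.84 and -0.25 with lpr urine and 1.54, 0.36 and 0.07 with MRL/MpJ urine, so that no common value for the gene can be given. Under spike-in scaling the brightest probe differed by 0.55 with lpr urine, within 2-fold, and by 1.11 with MRL/MpJ urine. Adm, the gene of the vasodilator adrenomedullin, read 29.9 and 45.6 with the lpr and MRL/MpJ urines, against 97.2 with PBS, and was within 2-fold (-0.64 ± 0.21 and -0.23 ± 0.21). Nos3, the endothelial nitric oxide synthase gene, was close to background everywhere, at 8.26 and 11.1 with the lpr and MRL/MpJ urines, against 10.6 with PBS. Its difference from PBS was 0.70 ± 0.29 with lpr urine and 0.94 ± 0.27 with MRL/MpJ urine, within 2-fold. Under spike-in scaling it was -0.29 and 0.03.

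The 5 matrix and pH genes measured on all arrays stayed within 2-fold on the probes used, and most were dim. P4ha1, a collagen prolyl hydroxylase subunit, read 133.9 units with lpr urine and 160.1 with MRL/MpJ urine, against 418.1 with PBS (-0.59 ± 0.20 and -0.52 ± 0.20). Its relative P4ha2 and the lysyl hydroxylase gene Plod2 were measured with PBS alone, at 16.2 and 11.5. Against the lowest signal well above background with MRL/MpJ urine, P4ha2 was at least 2.0-fold lower and Plod2 at least 1.42-fold. With lpr urine their own signals exceeded that lowest signal and gave 1.60-fold and 1.19-fold lower. These lpr urine values each carry an error of ± 0.40 log2 units and are not lower limits. Plod1, Loxl2, Car9 and Car12 lay between -0.16 and 0.90, and the sign of each changed with the array scaling in at least 1 comparison. Second probes lay past 2-fold higher for Plod1 (1.87 with lpr urine and 2.14 with MRL/MpJ urine) and for Car9 (1.62 and 1.24). Car9, the tumour-associated carbonic anhydrase that is a standard hypoxia marker, read 13.4 and 17.9 with the lpr and MRL/MpJ urines, against 31.3 with PBS.

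Among chromatin and protein oxygenases, the histone demethylase gene Kdm4b lay just past 2-fold and Kdm3a just short of it. Kdm4b read 382.5 units with lpr urine and 460.0 with MRL/MpJ urine, against 1688 with PBS (-1.09 ± 0.20 and -1.01 ± 0.20), but a dimmer probe gave 0.39 and 0.49 and their mean -0.35 and -0.26. Kdm3a, which removes repressive histone H3 methylation and is a direct HIF target, read 663.1 and 662.4 with the lpr and MRL/MpJ urines, against 2287 with PBS (-0.73 ± 0.20 and -0.93 ± 0.20). Its other measured probe gave -0.19 and -0.03, and normexp on the probe used gave -1.01 and -1.12, past 2-fold. Kdm4c stayed within 2-fold at 0.43 and 0.49, or -0.57 and -0.42 under spike-in scaling.

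**Figure D3:**
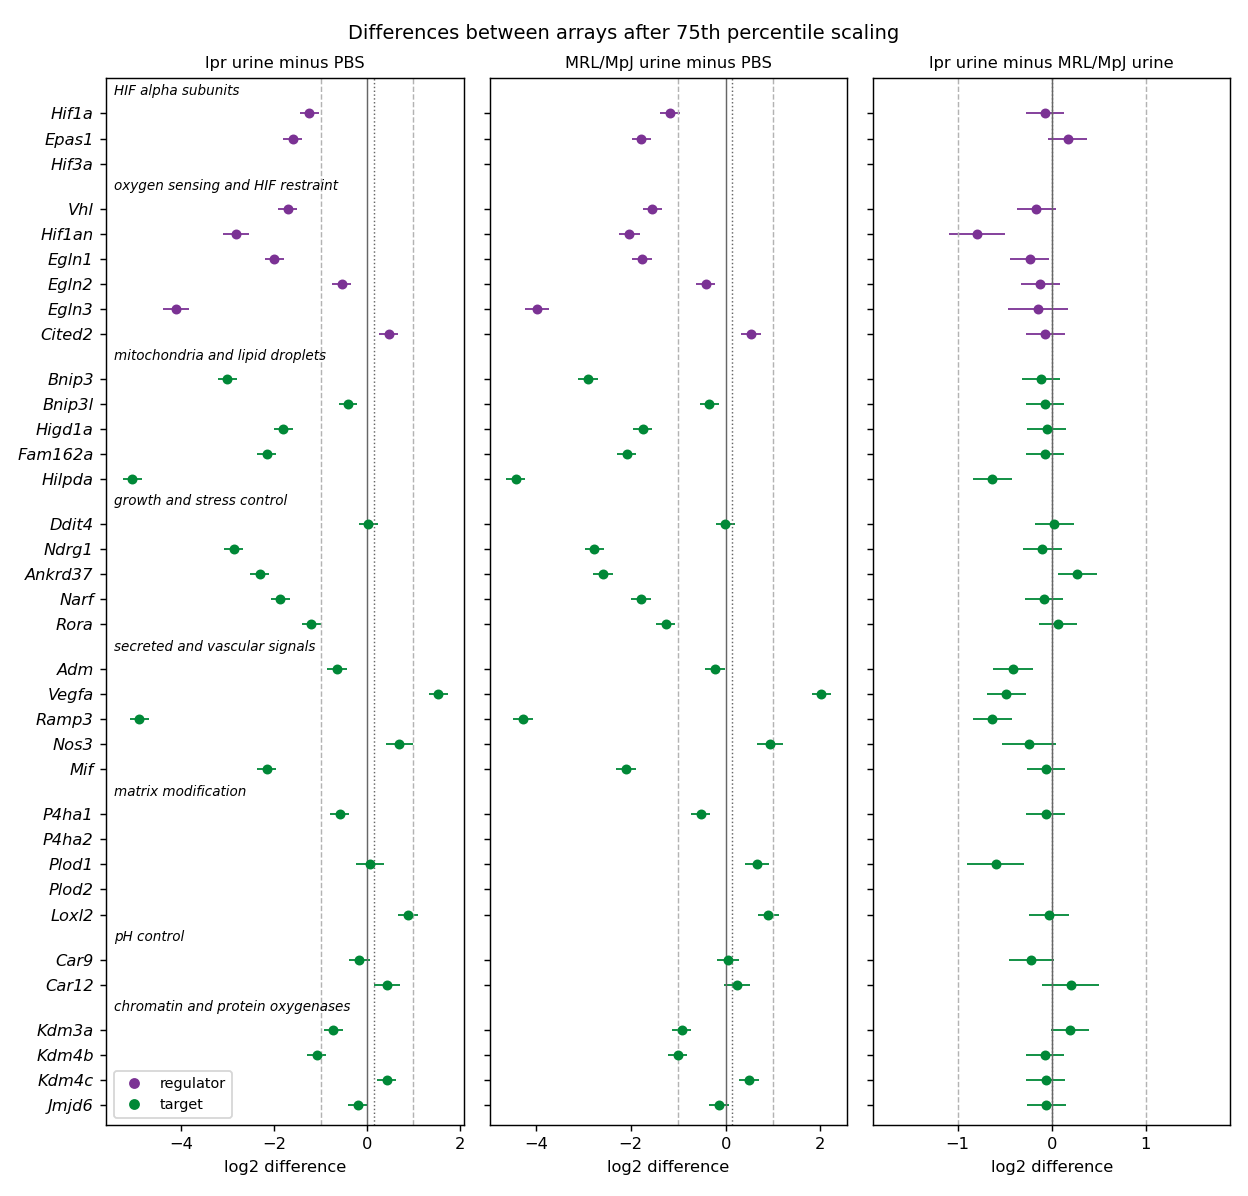
Log2 difference of each gene measured on both arrays, after 75th percentile scaling, for lpr urine minus PBS, MRL/MpJ urine minus PBS and lpr urine minus MRL/MpJ urine, with bars for the scanner software's error; purple marks regulators and green targets. Dashed lines mark 2-fold and dotted lines the median of all genes; 17 genes lie left of the lower dashed line in both PBS panels and 0 do so in the right panel, whose axis is narrower.

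Several probes were available for some genes, and they did not always have the same value. Of 17 genes with several measured probes, 13 had all probes on the same side of 0 with lpr urine and 15 with MRL/MpJ urine, and in 6 the probes spread over more than 1 log2 unit in each comparison. Jmjd6, a lysyl hydroxylase of splicing factors and histones, was the widest after Cited2. Its brightest probe, which lies furthest downstream (chromosome 11, 116698746 to 116698805, minus strand, mm9), read 1369.8 units with lpr urine and 1629 with MRL/MpJ urine, against 3263 with PBS (-0.20 ± 0.20 and -0.14 ± 0.20). The 3 probes upstream of it gave 2.29, 1.25 and 2.98 with lpr urine and 2.11, 1.42 and 3.20 with MRL/MpJ urine, and in these the PBS array was the dimmest before scaling as well. Which transcripts of Jmjd6 each probe reads was not determined. Genes that were far lower, such as Ramp3, Mif, Fam162a and Hif1an, had probes on the same side of 2-fold in both comparisons, as in Fam162a, whose other probe gave -2.86 with lpr urine and -2.34 with MRL/MpJ urine.

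**Figure D4:**
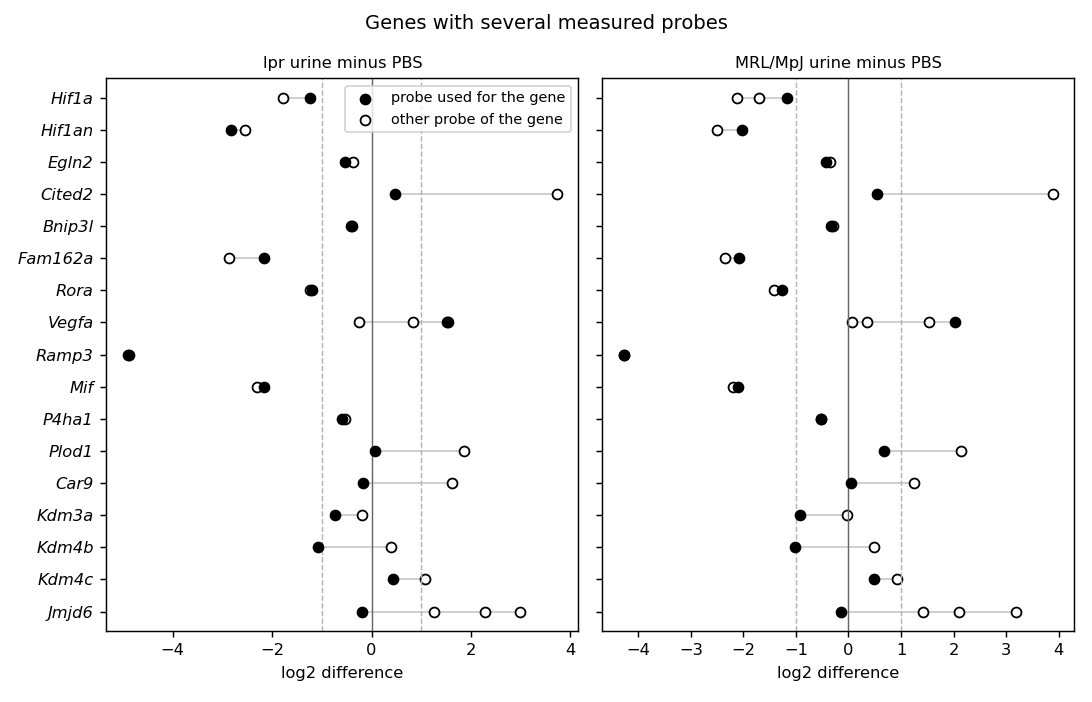
Log2 difference from PBS of every measured probe, for the 17 genes with several, with lpr urine on the left and MRL/MpJ urine on the right; filled points are the probes used for the gene. The probes of Ramp3, Mif and Hif1an lie together below -1, whereas those of Cited2, Vegfa, Kdm4b and Jmjd6 spread across the 2-fold lines.

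Between the urines the differences were small. With lpr urine against MRL/MpJ urine, 0 of 32 genes were at least 2-fold apart, where the share over all 20014 genes measured on both of these arrays was 0.0600% lower and 0.340% higher. The middle 90% of all genes lay between -0.33 and 0.43. Hilpda differed by -0.63 ± 0.21 and Ramp3 by -0.63 ± 0.20, ranked 155th and 157th from the lowest, whereas Bnip3 (-0.11 ± 0.20), Ndrg1 (-0.10 ± 0.20) and Egln3 (-0.14 ± 0.32) stayed within the software's error. Hif1an differed by -0.79 ± 0.30 (58th), but its other probe by -0.04 and the normexp value was -0.08. Adm differed by -0.41 ± 0.21 and Vegfa by -0.48 ± 0.20, with 1 other Vegfa probe in the opposite direction at 0.48. The dim gene Plod1 differed by -0.60 ± 0.30, and by -0.02 with normexp. The highest was Ankrd37 at 0.27 ± 0.20. The other measured genes lay between -0.24 and 0.20. The median was -0.13 over all 8 measured regulators and -0.07 over all 24 measured targets, against 0.00 over all genes.

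Other genes of the pathway were read from lists made by role, and their counts stand beside the same shares of all genes, 12.0% lower for lpr urine and 11.1% for MRL/MpJ urine. Glycolytic HIF targets had 16 of 23 measured members at least 2-fold lower with lpr urine and 15 with MRL/MpJ urine, with medians of -1.63 and -1.50. The 1 higher member was Gys1, a glycogen synthase gene. The lactate exporter gene Slc16a3 differed by -4.31 with lpr urine and -4.22 with MRL/MpJ urine, the enolase gene Eno2 by -5.47 and -3.92, the hexokinase gene Hk2 by -3.36 and -3.85 and the mutase gene Pgam1 by -3.12 and -2.86. Eno2 read 7.07 units with lpr urine, near background, and Hk2 was dim at 19.4 and 15.7 with the lpr and MRL/MpJ urines. The sizes of their differences are therefore uncertain. The list of non-glycolytic HIF targets outside the 26 also held Pfkfb4 (0.40 and 0.44), which is on the glycolytic list as well. Of the 15 measured genes of this list, 5 were at least 2-fold lower with lpr urine and 6 with MRL/MpJ urine. Among them were the metallothionein gene Mt1 (-3.01 and -2.82), the transcriptional repressor gene Bhlhe40 (-2.06 and -2.27) and Ero1a, an oxidase of protein folding (-2.35 and -2.08). In contrast, the ferroxidase gene Cp was higher by 2.14 and 2.19. Cp was dim, at 21.6 units with lpr urine and 25.5 with MRL/MpJ urine, against 10.2 with PBS, so the size of its difference is also uncertain.

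The remaining HIF machinery, such as partners, coactivators and ligase parts, had 3 of 18 measured members at least 2-fold lower with lpr urine and 2 with MRL/MpJ urine, near the share of all genes. Arnt, the beta subunit that partners HIF alpha, read 85.4 units with lpr urine and 107 with MRL/MpJ urine, against 402 with PBS (-1.18 and -1.05). Siah1a, a ubiquitin ligase that destroys prolyl hydroxylases, differed by -1.45 and -1.30, Hsp90aa1, the chaperone that stabilises HIF-1 alpha, by 2.28 and 2.45, and P4htm, a membrane-bound prolyl hydroxylase, by 1.28 and 1.28. Paralogs of the 35 genes had 2 of 21 measured members lower with lpr urine and 1 with MRL/MpJ urine, with medians of 0.26 and 0.15. Among them Ndrg2 was low like Ndrg1, at -1.95 and -1.85, and Ndrg4 stood at 1.21 and 0.99. Ramp1, the receptor partner for calcitonin gene-related peptide, was at 1.89 and 1.78 where Ramp3 stood at -4.90 and -4.27. The lowest measured probe of Ramp1 gave 0.94 and 0.62, within 2-fold.

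Receptors of the secreted products had 0 of 9 measured members at least 2-fold lower with lpr urine and 0 of 10 with MRL/MpJ urine. Flt1, the gene of the VEGF receptor VEGFR1, stood apart at 335.8 units with lpr urine and 343.1 with MRL/MpJ urine, against 8.12 with PBS. Its difference was 6.43 and 6.26 on the only 1 of its 4 probes that was measured on both arrays of each comparison, and since the PBS value lay near background its size is uncertain. Calcrl, the receptor that Ramp3 serves, differed by 0.36 and 0.33, and Cd74, a receptor of Mif, by 0.74 and 0.79. The VEGF coreceptor gene Nrp1 differed by 0.96 and 0.84, and Ramp2, measured with MRL/MpJ urine and PBS only, by 0.87. The medians of the machinery, paralog and receptor lists were above 0 and would lie below 0 under spike-in scaling.

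**Figure D5:**
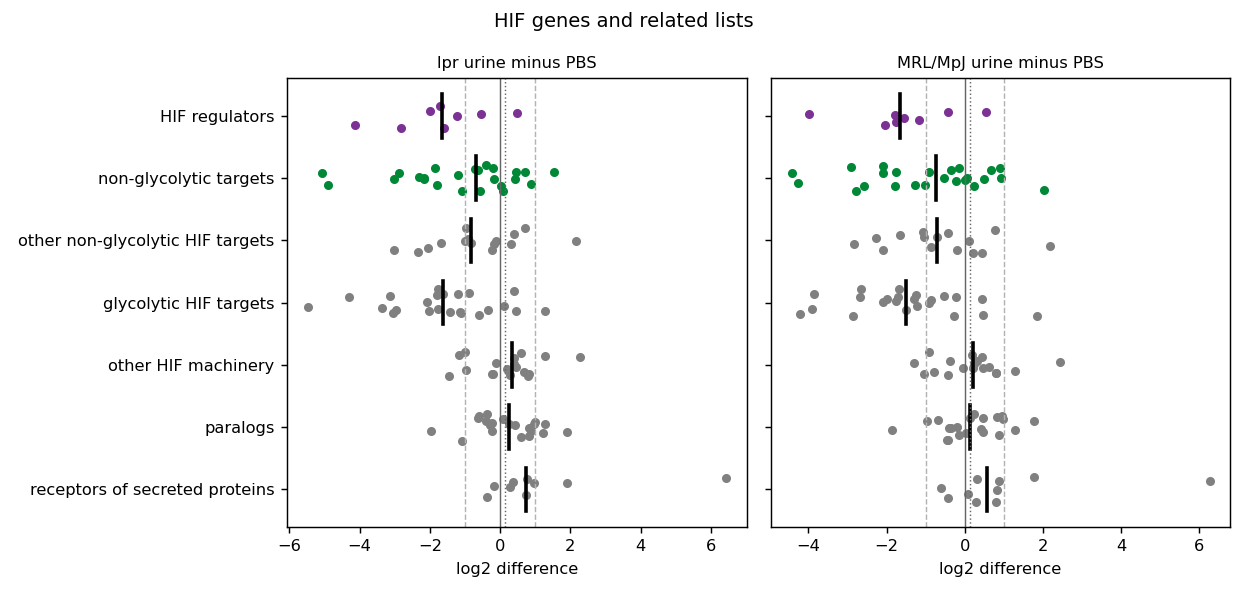
Log2 difference from PBS of each measured gene in the regulator, target and related lists, with lpr urine on the left and MRL/MpJ urine on the right; black bars are list medians, the dotted line is the median of all genes and dashed lines mark 2-fold. Regulators and glycolytic targets have the lowest medians, and the machinery, paralog and receptor lists lie around or above the median of all genes.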

How the data were processed

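The 3 single-colour (Cy3) Agilent arrays of cultured spleen cells were analysed, 1 per condition, grouped by the labels' treatment field. The deposited unit is intensity, without a physical scale, produced by Agilent Feature Extraction 12.0.3.1 per the file headers and the submitters' processing notes. The processed signal had background subtracted and was detrended within the array, and it was not normalised between arrays. The software's error, the mean spot signal and the local background are deposited intensity values as well, per the file headers. Probe positions are on mm9, 1-based. Exon and UTR annotation was not used here.

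Spots flagged as outliers were removed and repeated spots averaged, which left 56599 of 56605 probes and 36609 genes. No probe was saturated. Levels were log2 processed signals less the 75th percentile of their array. Lower and higher mean at least 2-fold apart, for genes that both arrays of a comparison measured. The same share over all genes is given for each comparison with PBS and between urines. A gene measured with PBS alone was set against the higher of its own signal and the lowest signal well above background on the other array. The fold is a bound only where the latter was used. The calculation was tested on simulated arrays with Python 3.11.15 and pandas 2.3.3. The normexp correction used limma 3.58.1 with an offset of 50 units. The genes, lists and roles were chosen with earlier results of these data known. All 35 genes are accounted for, and of each related list the up to 4 with the largest differences from PBS are named. Gys1, Calcrl and Cd74 were added to these with their values known. P4htm, Ramp1, Cxcr4, Pfkfb4, Nos2, Pgf, Lox, Cited1, Cited4 and Ramp2 sit in more than 1 related list. Alternatives were other scalings, normexp, other probe rules, other filters and the placing of Cited2.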

Additional observations from a re-analysis of the deposited data

How the results depend on the processing

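The 36 differences from PBS that passed 2-fold kept their direction under each of the 5 other scalings and corrections and with probes averaged per gene. Between 32 and 36 of them stayed past 2-fold. Median scaling, spike-in scaling and the 75th percentile of detected probes each shift all differences of a comparison by the same amount, under 2-fold. Direction could therefore not change at those settings, and its being kept there is no check. The count of regulators at least 2-fold lower ranged from 5 to 7 in each comparison with PBS, and that of targets from 10 to 16 with MRL/MpJ urine. Over the scalings and normexp, 9.59% to 44.0% of all genes were lower with lpr urine and 8.23% to 41.0% with MRL/MpJ urine. With lpr urine the count of lower targets reached 17 under spike-in scaling, where the count of higher targets was 0 and 5.60% of all genes were higher. Counts of higher genes, which were 1 target and 0 regulators at the chosen settings, also changed. With the 75th percentile taken over probes well above background on all arrays, 2 targets were higher with lpr urine and 3 with MRL/MpJ urine. The shares of all genes that were higher at this setting were 22.2% and 19.9%. With probes averaged per gene, 2 targets were higher with MRL/MpJ urine, and 1 regulator, Cited2, with each urine. Requiring every measured probe to pass left 0 higher targets with either urine. Without a filter on dim probes, 1 regulator, Hif3a, was higher with lpr urine against PBS and against MRL/MpJ urine, although it was not well above background on any array. The share of all genes that were higher is not given for these probe and filter rules. The counts of higher genes under them therefore do not set the 35 genes apart. Where 0 lay changed the split of all genes: of those past 2-fold, 60.7% were higher for lpr urine and 60.3% for MRL/MpJ urine, against 11.3% and 12.0% under spike-in scaling, 33.5% and 33.7% under median scaling, 69.8% and 68.9% with the 75th percentile of detected probes, 53.5% and 53.2% after quantile normalisation and 43.1% and 45.8% with normexp. Leaving out a replicate was not possible with 1 array per condition. No paired analysis was possible because each condition had 1 array. Signals within a few units of background, such as those of Egln3 and Hif1an with urine, limit the size of the differences.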
